A study of Mus musculus with 20 samples.

Results

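The genes described here act in the liver's handling of cysteine and taurine: Cbs, Cth, Cdo1, Csad, Ado, Suox, Got1l1 and Slc6a6. They were matched by gene symbol in the table of unnormalised counts, where each of the 8 symbols was found among 55487 gene identifiers, and were followed over all 20 libraries. Liver RNA was sequenced from female C57BL/6J mice killed at 28 weeks of age, with 1 library per mouse. Chow mice ate a standard chow from 8 weeks of age. Mice of the other groups all ate the same high-fat diet (HFD) for 10 weeks and then, for 10 more weeks, an alternative HFD of equal energy in which 50% of the protein came from fishmeal made of salmon by-products, from salmon filet or from beef, with casein as the rest. The alternative HFDs share the earlier diet, the amounts of casein, lard and added cystine and the share of energy from fat, but differ in soybean oil, fatty acids and cholesterol as well as in the protein source. No HFD group with casein as its only protein was analysed here. Fat, carbohydrate and protein source all differ from chow, so that they cannot be told apart in a comparison with chow. By the endings of the column names there are 5 mice in each of chow, fishmeal, salmon filet and beef. Mouse 31 ends in beef there, while its sample label says salmon; group values use the column endings, and the fits of Csad and of Cth in beef are also given with mouse 31 in salmon filet.

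Sulfur from methionine reaches cysteine by transsulfuration, in which cystathionine beta-synthase (Cbs) joins homocysteine to serine and cystathionine gamma-lyase (Cth) releases cysteine. Cysteine dioxygenase (Cdo1) oxidises cysteine to cysteine sulfinic acid, which cysteine sulfinic acid decarboxylase (Csad) turns into hypotaurine on the way to taurine, while transamination of the same acid leads to sulfite, which sulfite oxidase (Suox) turns into sulfate. Cysteamine dioxygenase (Ado) gives hypotaurine from cysteamine, and the transporter encoded by Slc6a6 takes taurine up into cells. The mouse liver joins taurine to bile acids, and fish and meat supply taurine with the food.

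The libraries held 42526234 to 70266136 reads assigned to genes. The share of counts on protein coding genes was 84.3% in mouse 35 (beef) and at least 93.2% in the other libraries. All 5 hepatocyte markers were present, with a summed level of 93882 to 114947 CPM in chow and 85970 to 113322 in HFD mice. CPM is a count scaled to library size, here with factors from the trimmed mean of M-values (TMM). Tests on counts used edgeR, with p-values adjusted over all genes tested, and a gene was called at an adjusted p under 0.05.

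Csad, the decarboxylase of taurine synthesis, was lower in every HFD mouse than in any chow mouse, and it was the only member called by edgeR in any comparison. In chow mice its level was 240, 404, 363, 219 and 214 CPM in mice 1, 2, 5, 7 and 10. In the fishmeal group it was 29.5, 43.5, 49.4, 10.9 and 81.6 CPM in mice 12, 13, 14, 16 and 20. These groups did not overlap, and mouse 16 had the lowest level of all. In the salmon filet group Csad stood at 31.5, 17.0, 24.3, 47.3 and 103 CPM in mice 22, 23, 25, 26 and 27. In the beef group it stood at 77.9, 29.2, 50.9, 59.4 and 53.2 CPM in mice 31, 32, 35, 39 and 40. Neither group reached into the chow range, and the lowest chow mouse had 2.07 times the level of the highest HFD mouse, mouse 27. How many of all genes likewise did not overlap between chow and HFD was not counted, here or for the genes named below.

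**Figure D1:**
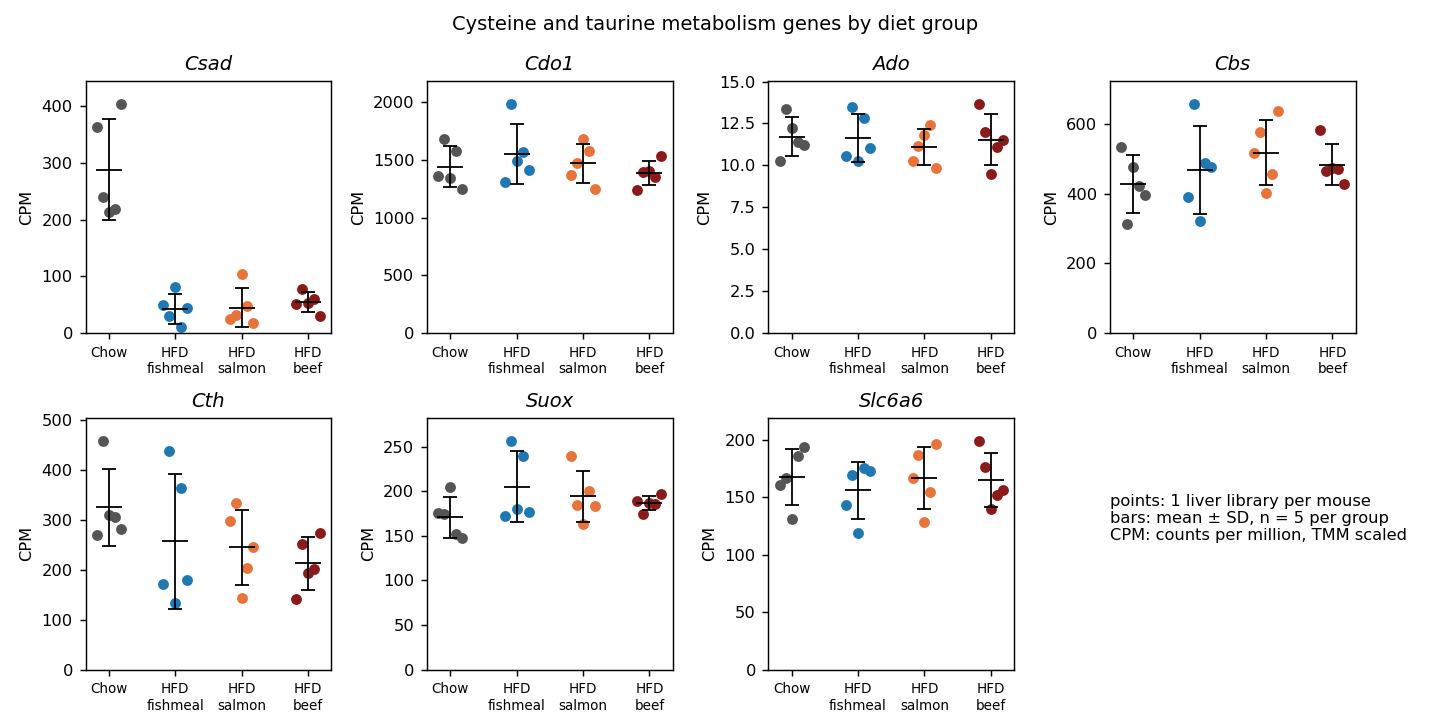
Level of 7 of the genes (y axis, CPM, from 0) in chow, HFD fishmeal, HFD salmon filet and HFD beef livers (x axis); each point is 1 mouse, and bars give the mean ± SD of 5 mice. Csad sat at 214 to 404 CPM in chow and at 10.9 to 103 CPM in HFD mice, while every other gene shown overlapped between chow and HFD.

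The mean of Csad was 288 ± 88.9 CPM (SD, n = 5) in chow and 47.3 ± 25.6 CPM (SD, n = 15) in HFD mice. The log2 fold change in HFD versus chow was -2.61 (SE 0.32, 95% confidence interval -3.27 to -1.95), a 6.11-fold lower level, with an adjusted p of 1.67e-05 by edgeR's quasi-likelihood test. An exact two-sided permutation test of the log2 CPM over all 15504 splits into 5 and 15 mice gave p = 6.45e-05, the smallest this design allows. It was run for Csad alone, and because the groups do not overlap it adds nothing beyond that separation. Of 17120 genes tested in this comparison, 9.75% were called, 4.54% higher and 5.21% lower, against 1 of the 7 members tested. The members were chosen with earlier results of these data known, so that this is no test of them as a set. Csad had the third lowest log2 fold change among 3928 genes with a mean of at least 30 CPM, and rank 29 among all genes tested. In bulk liver, fewer cells of a type and less RNA per cell cannot be told apart.

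Each HFD group showed the lower level of Csad on its own against the same chow mice. The log2 fold change was -2.75 (95% confidence interval -3.67 to -1.82, adjusted p = 0.00434) in fishmeal, -2.69 (-3.65 to -1.73, adjusted p = 0.00937) in salmon filet and -2.42 (-2.99 to -1.85, adjusted p = 0.000693) in beef, all by edgeR. The share of all genes called in these comparisons was 3.38%, 4.42% and 3.05%. With mouse 31 placed in salmon filet, as its label says, the values became -2.52 (adjusted p = 0.00628) in salmon filet and -2.59 (adjusted p = 0.000821) in beef. Removal of any single mouse kept Csad called in all 20 fits of HFD versus chow, at -2.74 to -2.45, and in all 10 fits of each HFD group versus chow.

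The Csad gene (ENSMUSG00000023044) lies at chr15:102176999-102204724 on the minus strand of GRCm38. RefSeq gives 2 starts for it, of which the upstream start lies outside these bounds. The 250 bases before each start are printed here, 5′ to 3′ on the gene's strand, because this is the gene whose level differed. The capitals mark a CCAAT box (CCAAT) and a partial cAMP response element (TGACG).
Csad, chr15:102205053-102205302, minus strand, GRCm38.p6: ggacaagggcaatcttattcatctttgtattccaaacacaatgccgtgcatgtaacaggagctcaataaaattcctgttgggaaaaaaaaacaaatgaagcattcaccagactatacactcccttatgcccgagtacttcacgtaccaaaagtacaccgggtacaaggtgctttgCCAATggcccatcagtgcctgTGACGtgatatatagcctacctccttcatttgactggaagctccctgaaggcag
Csad, chr15:102189044-102189293, minus strand, GRCm38.p6: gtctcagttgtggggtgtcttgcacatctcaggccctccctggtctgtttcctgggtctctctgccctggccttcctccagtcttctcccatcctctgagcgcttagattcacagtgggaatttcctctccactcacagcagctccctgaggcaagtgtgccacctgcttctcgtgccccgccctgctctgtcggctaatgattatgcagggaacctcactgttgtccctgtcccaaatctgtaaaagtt
The upstream window lies beyond the 5′ end of the gene in GENCODE M21 and holds 1 CCAAT box and 1 TGACG, whose last bases lie 71 and 50 bases before the start site. The downstream window holds neither, and neither window holds an E-box (CACGTG), a nuclear receptor site core (AGGTCA) or a TATA box (TATAAA). Searched on both strands, CCAAT is found in 33.8% of 32851 mouse promoter windows of this length, TGACG in 17.8%, CACGTG in 6.02%, AGGTCA in 14.0% and TATAAA in 12.4%. The counts are per gene, so that use of the starts was not measured. Of the exon bases of Csad, 7.26% overlap Zfp740 on the opposite strand. Zfp740 itself had a log2 fold change of -0.14 (adjusted p = 0.468).

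Cdo1 and Ado, the dioxygenases that supply hypotaurine's precursors or hypotaurine itself, showed no such difference. Cdo1 (ENSMUSG00000033022) had 1248 to 1676 CPM in chow and 1241 to 1984 CPM in HFD mice. Its log2 fold change in HFD versus chow was 0.02 (95% confidence interval -0.19 to 0.23, adjusted p = 0.919), and its sign turned under other settings. Ado (ENSMUSG00000057134, chr10:67544511-67548955, minus strand) had 10.3 to 13.4 CPM in chow and 9.46 to 13.7 CPM in HFD mice, with a log2 fold change of -0.04 (-0.22 to 0.14, adjusted p = 0.840). The 95% intervals of both genes ended at 0.23 log2 units or less from 0, whereas Csad fell by 2.61 on the same scale.

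Set against Cdo1 within each library, Csad was lower in every HFD mouse than in any chow mouse. As Cdo1 differed little between chow and HFD, this restates the lower level of Csad and adds no separate evidence. In TPM, a transcript level scaled for gene length and library size and so comparable between genes, the level of Csad was 5.96% to 13.9% of that of Cdo1 in chow and 0.298% to 2.65% in HFD mice. Cdo1, the step before it, made up 68.8% to 75.6% of the members' summed TPM in chow and 73.3% to 82.5% in HFD mice. By median TPM the order in chow was Cdo1 (2035 to 2571), Cth (237 to 415), Suox (164 to 210), Csad (143 to 293), Cbs (106 to 175), Slc6a6 (39.6 to 63.7) and Ado (5.53 to 7.39). The ranges of Suox, Csad and Cbs overlapped one another, and that of Csad overlapped Cth, whereas Cth and Suox, Cbs and Slc6a6, and Slc6a6 and Ado did not overlap. In HFD mice Csad (7.03 to 71.1 TPM, median 30.3) overlapped Slc6a6 (37.5 to 59.4, median 48.2), but its median lay below the lowest value of Slc6a6. Csad stood below Cbs (115 to 208), Suox (164 to 238) and Cth (110 to 327).

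Of the transsulfuration genes, neither was called, and they leaned to opposite sides. Cbs (ENSMUSG00000024039, chr17:31608894-31637238, minus strand) had 313 to 534 CPM in chow and 323 to 659 CPM in HFD mice, with a log2 fold change of 0.19 (95% confidence interval -0.09 to 0.47, adjusted p = 0.414). Cth (ENSMUSG00000028179, chr3:157894248-157925077, minus strand) had a lowest, median and highest level of 269, 306 and 459 CPM in chow and of 133, 203 and 439 CPM in HFD mice. In 10 of the 15 HFD mice Cth was below the lowest chow mouse, and in the fishmeal group it spanned 3.29-fold. Its log2 fold change in HFD versus chow was -0.45 (-0.92 to 0.01, unadjusted p = 0.0563, adjusted p = 0.220 by edgeR). In beef alone versus chow it was -0.62 (-1.03 to -0.20), with an unadjusted p of 0.00756 and an adjusted p of 0.110 by edgeR, where DESeq2 gave an adjusted p of 0.0464. With mouse 31 in salmon filet it was -0.68 (adjusted p = 0.114 by edgeR).

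Suox and Slc6a6 stand at the ends of the pathway and were not called, and Got1l1 could not be tested. Suox (ENSMUSG00000049858, chr10:128669894-128674073, minus strand) had 147 to 205 CPM in chow and 163 to 257 CPM in HFD mice, with 14 of 15 HFD mice above the chow mean and a log2 fold change of 0.19 (95% confidence interval -0.02 to 0.40, adjusted p = 0.267). Slc6a6 (ENSMUSG00000030096, chr6:91684053-91759066, plus strand) had 131 to 194 CPM in chow and 119 to 199 CPM in HFD mice, with a log2 fold change of -0.05 (-0.28 to 0.18, adjusted p = 0.831). The directions of Ado and Slc6a6 turned in a fit with a score of clock gene levels as a covariate, and in single fits that left out a mouse. Got1l1 (ENSMUSG00000039720, chr8:27197459-27223828, minus strand), named for its likeness to a transaminase, had 4, 4, 0, 0 and 0 reads in chow mice 1, 2, 5, 7 and 10 and 1, 0, 0, 0 and 0 reads in fishmeal mice 12, 13, 14, 16 and 20. It had 0, 0, 4, 1 and 0 reads in salmon filet mice 22, 23, 25, 26 and 27 and 1, 1, 0, 0 and 1 reads in beef mice 31, 32, 35, 39 and 40, too few to be tested. At this depth Got1l1 was near the limit of detection in every group. Stretches of Cbs and Slc6a6 transcripts at least 50 bases long match 63 and 86 other genes at 95% identity or more, which leaves some uncertainty in their counts.

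**Figure D2:**
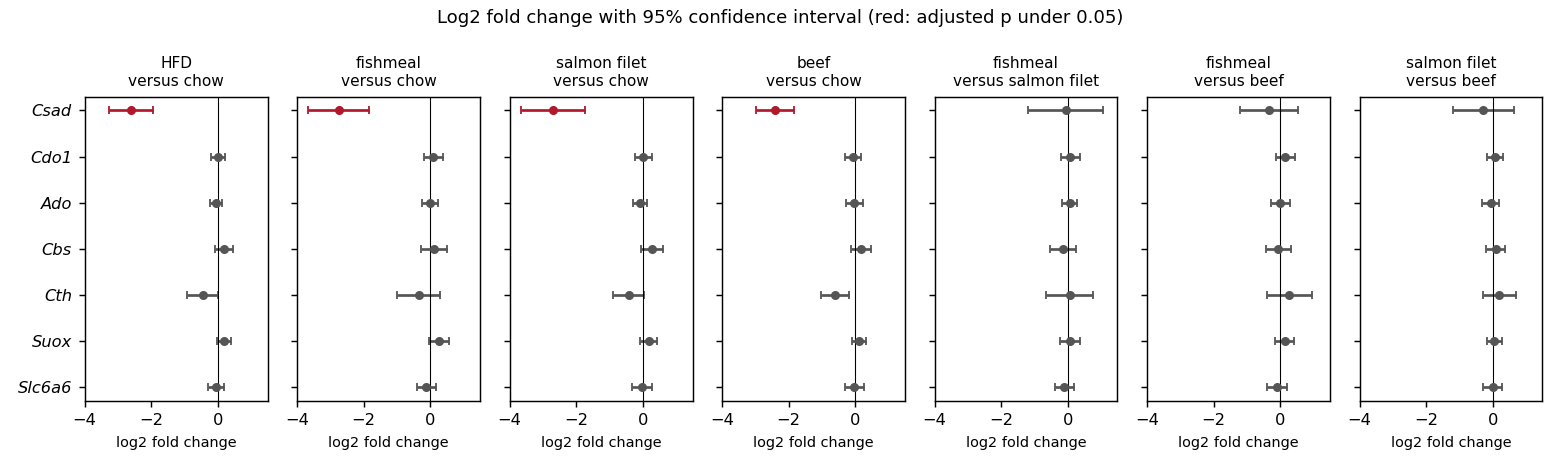
Log2 fold change (x axis) of 7 genes (y axis) in 7 comparisons (panels), with 95% confidence intervals from edgeR; red marks an adjusted p under 0.05. Csad is red in the 4 comparisons with chow, at -2.75 to -2.42, and no gene is red between HFD groups.

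Between the HFD groups, which differ in the test food with its protein, fatty acids and cholesterol, so that these cannot be told apart, no member was called by edgeR or by DESeq2, and none had an unadjusted p under 0.05 by edgeR. The share of all genes called was 0.17% in fishmeal versus salmon filet, 0.0245% in fishmeal versus beef and 0% in salmon filet versus beef, where edgeR gave 796 genes at an unadjusted p under 0.05 and DESeq2 called 7. Csad had means of 43.0 ± 26.2 CPM in fishmeal, 44.7 ± 34.7 CPM in salmon filet and 54.1 ± 17.5 CPM in beef (SD, n = 5 each). The groups overlapped in each pair. The log2 fold change of Csad was -0.05 (95% confidence interval -1.18 to 1.08) in fishmeal versus salmon filet, -0.33 (-1.20 to 0.54) in fishmeal versus beef and -0.28 (-1.19 to 0.63) in salmon filet versus beef. With mouse 31 in salmon filet these values were -0.21, -0.16 and 0.06. Each of the printed intervals reaches beyond 1 log2 unit on at least 1 side, so that these data leave a difference of that size between HFD groups undecided. For Cdo1 the same intervals were -0.21 to 0.37, -0.12 to 0.45 and -0.16 to 0.32, and for Slc6a6 -0.39 to 0.20, -0.38 to 0.22 and -0.28 to 0.30.

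Within groups, Csad had the widest range of the testable members in all 4 diets; whether the spread differs between diets was not tested. It spanned 7.5-fold in fishmeal, 6.07-fold in salmon filet and 2.67-fold in beef, against 1.89-fold in chow. The other testable members spanned at most 3.29-fold in any group.

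Over the 15 HFD mice, relations between members were examined for all 21 pairs of log2 CPM, with permutations within diet groups and adjustment over the pairs. Cbs and Slc6a6 tended to be high in the same mice, with Pearson r = 0.838 (permutation p = 0.00021, adjusted 0.00441) and Spearman rho = 0.764 (permutation p = 0.00201, adjusted 0.0398). Without mice 12 and 20, which lay farthest from the median of Cbs, r was 0.842, and within fishmeal, salmon filet and beef it was 0.843, 0.982 and 0.690. Mice with less Csad tended to have more Cth, with r = -0.72 (permutation p = 0.00708, adjusted 0.0743) and rho = -0.718 (permutation p = 0.00379, adjusted 0.0398), so that only the rank measure passed. Without mice 16 and 23, r was -0.737, and within the groups, with mouse 31 in beef, it was -0.809, -0.791 and -0.212. The r of Csad with Suox was -0.675 (permutation p = 0.0179, adjusted 0.0941). That of Cth with Suox was 0.746 (permutation p = 0.0144, adjusted 0.0941). Apart from Cbs with Slc6a6 and Csad with Cth, no pair had an adjusted p under 0.05 on either measure. The total count of a library had r = -0.335 with Csad, 0.348 with Cth, 0.375 with Cbs and 0.330 with Slc6a6. For the protein coding share r was -0.119, 0.316, -0.344 and -0.428 in the same order. Without mouse 35, the lowest in that share, it was -0.0826, -0.134, -0.353 and -0.213. For the score of clock gene levels r was 0.120, -0.418, -0.199 and -0.398. The part of these features in the relations was not tested.

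**Figure D3:**
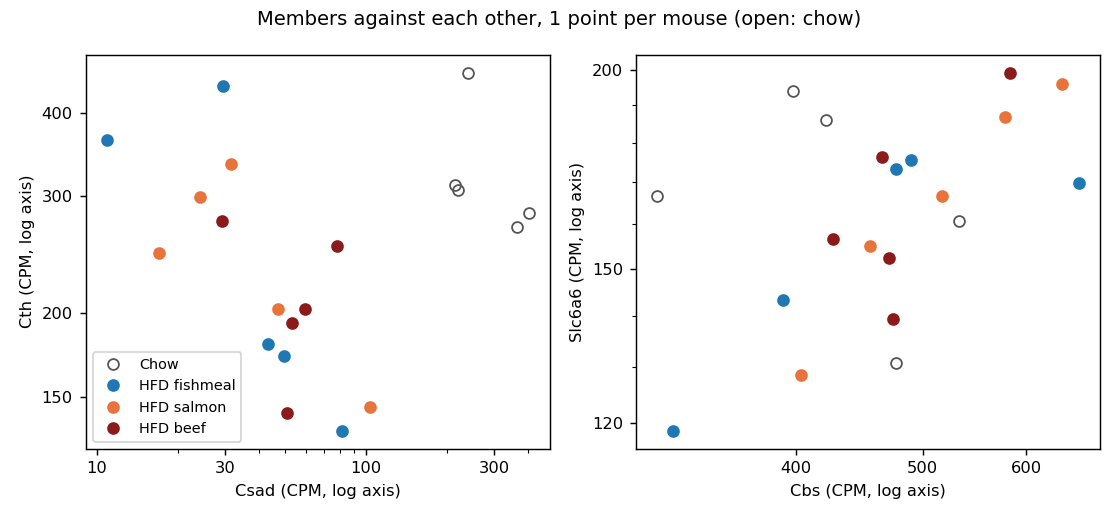
Csad (x axis) against Cth (y axis) and Cbs (x axis) against Slc6a6 (y axis), in CPM on log axes; each point is 1 mouse, filled and coloured by HFD group or open for chow. Among HFD mice the first pair falls (r = -0.72) and the second rises (r = 0.838), and in the first panel the chow mice stand apart at 214 CPM of Csad or more.

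As a description over all 20 libraries, and among 7601 genes with a mean of at least 10 CPM, the genes whose log2 CPM was most like that of Csad were Cyp27a1 (r = 0.862), Ets2 (r = 0.860) and the long non-coding RNA AC127342.1 (r = 0.811). Cyp27a1, the sterol 27-hydroxylase of the acidic bile acid pathway, had 304 to 376 CPM in chow and 152 to 249 CPM in HFD mice. Ets2, a transcription factor, had 31.8 to 35.6 CPM in chow and 19.9 to 27.5 CPM in HFD mice. AC127342.1 had 17.3 to 65.4 CPM in chow and 0.702 to 16.4 CPM in HFD mice. Its median in HFD mice, 5.83 CPM, was below the 10 CPM asked of the mean over all libraries. Among the 15 HFD mice alone the r of Csad with these 3 genes was 0.486, 0.524 and 0.453, below the values over all 20 libraries, which include the difference between chow and HFD. The genes most like Cbs were Agxt (r = 0.886) and Bhmt2 (r = 0.883), an aminotransferase of glyoxylate and a homolog of the betaine homocysteine methyltransferase, with Lasp1 (r = 0.881). For Cth they were Ppa1 (r = 0.902), Aass (r = 0.885) and Mtch2 (r = 0.875), for Cdo1 Vti1b (r = 0.853), Gnb1 (r = 0.846) and Rtn3 (r = 0.816), and for Suox Gstz1 (r = 0.855), Oma1 (r = 0.851) and Ndufa9 (r = 0.833). Slc6a6 was most like Hal (r = 0.791), Mocos (r = 0.783) and Dapk1 (r = 0.724), and Ado like Gtf2a1 (r = 0.759), Palld (r = 0.735) and Ubqln1 (r = 0.731).

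Around these members, 36 other genes of the pathway were listed, of which 32 could be tested in HFD versus chow. Of these, 9 were called, 6 higher and 3 lower, beside 9.75% of all genes. The list was chosen with earlier results of these data known, so that these shares are a description and no test of the pathway. The median log2 fold change was 0.10 over the list, -0.04 over the 7 members and 0.00 over all genes tested. None of the genes that bring methionine to homocysteine (Mat1a, Gnmt, Ahcy) or cysteine into glutathione (Gclc, Gclm, Gss) was called, and their log2 fold changes lay between -0.09 and 0.28. Ggt1, Slc7a11, Slc7a9 and Gadl1, the last a relative of Csad, were too low to be tested.

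**Figure D4:**
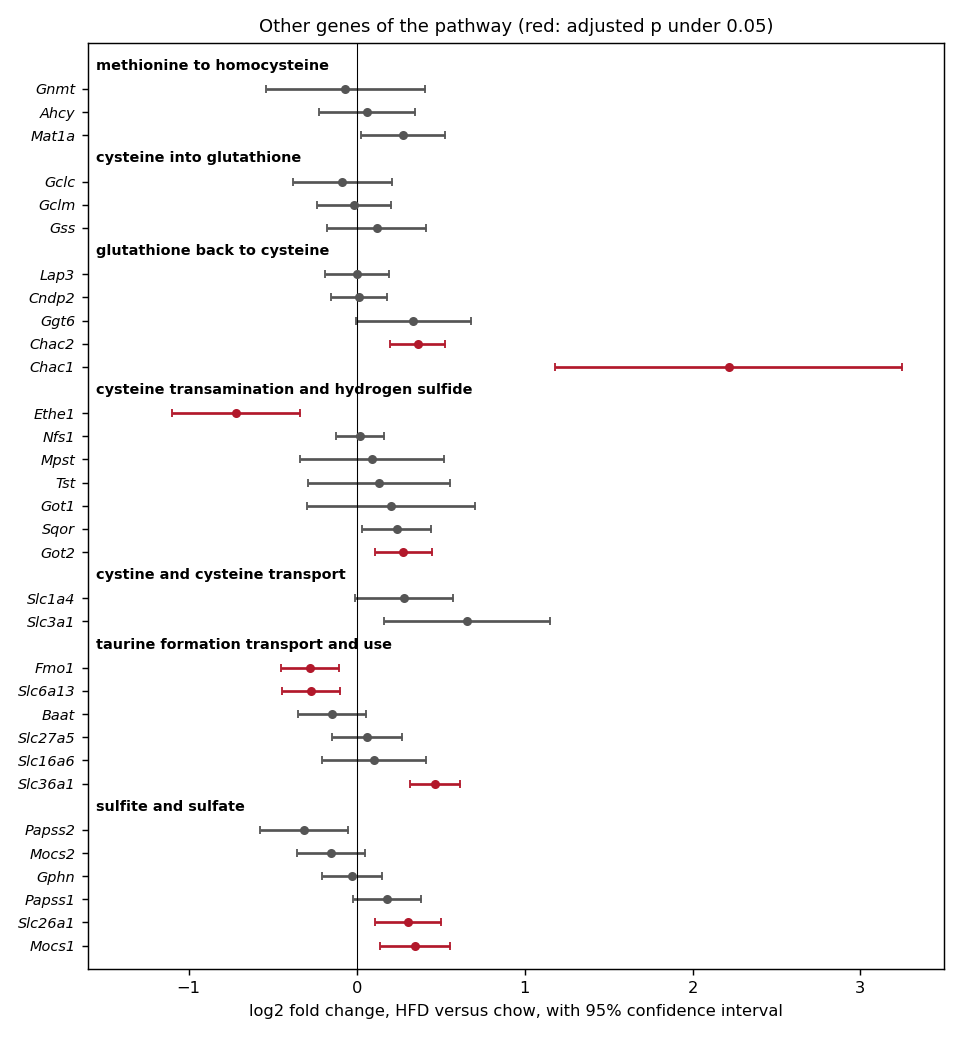
Log2 fold change in HFD versus chow (x axis, with 95% confidence interval, edgeR) of 32 other genes of cysteine and taurine metabolism (y axis), grouped by role; red marks an adjusted p under 0.05. Chac1 is highest at 2.22 and Ethe1 lowest at -0.72.

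Among genes of taurine formation, transport and use, Slc36a1 was higher in HFD and Fmo1 and Slc6a13 were lower. Slc36a1, a proton-coupled carrier of small amino acids, had 29.7 to 37.9 CPM in chow and 38.5 to 54.6 CPM in HFD mice without overlap (log2 fold change 0.47, adjusted p = 2.53e-04), and edgeR called it in each HFD group versus chow, though limma on TPM called it in salmon filet alone. Fmo1, which oxidises hypotaurine to taurine, had a log2 fold change of -0.28 (adjusted p = 0.0359). Slc6a13, a carrier that takes up taurine and GABA in liver, had -0.27 (adjusted p = 0.0400). Baat, which joins taurine to bile acids, had 271 to 315 CPM in chow and 178 to 325 CPM in HFD mice and was not called (log2 fold change -0.15).

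Both enzymes of the list that break down glutathione inside cells, Chac1 and Chac2, rose. Chac1 had 0.105 to 1.04 CPM in chow and 0.748 to 6.47 CPM in HFD mice, a log2 fold change of 2.22 (adjusted p = 0.00626). Chac2 had 24.1 to 28.7 CPM in chow and 29.1 to 40.9 CPM in HFD mice without overlap, and its log2 fold change was 0.36 (adjusted p = 0.00505). Ethe1, the mitochondrial persulfide dioxygenase of hydrogen sulfide breakdown, fell, from 24.4 to 47.4 CPM in chow to 16.6 to 45.0 CPM in HFD mice (log2 fold change -0.72, adjusted p = 0.0155). Got2, the mitochondrial aspartate aminotransferase that can take the amino group from cysteine sulfinic acid, was higher by 0.28 (adjusted p = 0.0350). Mocs1, of the molybdenum cofactor that Suox needs, was higher by 0.35 (adjusted p = 0.0297), and Slc26a1, a sulfate carrier, by 0.31 (adjusted p = 0.0442).

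Slc36a1, Chac1 and Chac2 passed with any single mouse left out. Ethe1 did not pass without chow mouse 1, 2 or 7 (adjusted p 0.0533, 0.0501 and 0.0627), nor did Mocs1 (0.0922, 0.0686 and 0.109), and Got2 did not pass without these or without mouse 40 (0.127, 0.105, 0.113 and 0.0501). Fmo1 passed in 13 of the 20 such fits (not without mouse 1, 2, 7, 13, 22, 26 or 40), Slc26a1 in 11 (not without mouse 1, 2, 7, 10, 23, 25, 32, 35 or 40) and Slc6a13 in 9 (not without mouse 1, 2, 5, 7, 10, 13, 14, 20, 22, 23 or 39). By diet group versus chow, edgeR called Slc36a1 and Chac2 in fishmeal, Slc36a1, Chac1 and Fmo1 in salmon filet, and Slc36a1, Chac1, Ethe1 and Slc3a1 in beef. That is 2, 3 and 4 of the 32 genes, beside 3.38%, 4.42% and 3.05% of all genes, again for a list chosen with earlier results known. Between HFD groups edgeR called none of the list. There, 2, 1 and 1 of the 32 had an unadjusted p under 0.05 in fishmeal versus salmon filet, fishmeal versus beef and salmon filet versus beef. Over all genes it was 851 of 16494, 422 of 16304 and 796 of 16212, in the same order. Of the 10 fits that each left out a mouse, Chac2 in fishmeal, Slc36a1 in salmon filet and Ethe1 in beef passed in all 10. Slc36a1 passed in 2 in fishmeal (those without mouse 10 or 12) and in 8 in beef (not without mouse 7 or 39), and Chac1 in 1 in salmon filet (that without mouse 1) and in 7 in beef (not without mouse 2, 39 or 40). Fmo1 in salmon filet passed in none, at adjusted p of 0.0505 to 0.0937, and Slc3a1 in beef in 5 (not without mouse 2, 5, 7, 31 or 40). With mouse 31 in salmon filet, Fmo1 in salmon filet (adjusted p = 0.0510) and Slc3a1 in beef (adjusted p = 0.0555) were not called.

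Other settings also ended calls of these genes. With limma on log2(TPM + 1) the adjusted p in HFD versus chow was 0.0845 for Got2. With limma it was 0.249 for Slc36a1 in fishmeal, 0.0596 for Slc36a1 in beef, 0.0651 for Fmo1 in salmon filet and 0.0761 for Slc3a1 in beef, each versus chow, and on log2(TPM + 0.1) it was 0.0675 for Chac1 in salmon filet. With every gene of at least 1 count in the edgeR fit, the adjusted p in HFD versus chow was 0.0746 for Got2, 0.0654 for Fmo1, 0.0803 for Slc6a13 and 0.0690 for Slc26a1, and 0.0620 for Fmo1 in salmon filet versus chow. With all 4 groups in 1 edgeR fit it was 0.0706 for Chac1 in salmon filet and 0.178 for Slc3a1 in beef, each versus chow.

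Slc3a1, a subunit of the cystine transporter, had 50.6 to 57.0 CPM in chow and 59.9 to 228 CPM in HFD mice without overlap, but was not called in HFD versus chow (log2 fold change 0.66, adjusted p = 0.0841). The highest value was that of mouse 23, without which the log2 fold change was 0.47 and the adjusted p 0.0171, and DESeq2 on all mice gave an adjusted p of 0.0405. Of its exon bases, 26.5% overlap Prepl on the opposite strand. Prepl itself had a log2 fold change of 0.13 (adjusted p = 0.285 by edgeR). Smaller shares of the exon bases of Got2 (9%), Ethe1 (6.67%) and Slc26a1 (3.48%) also overlap genes on the opposite strand.

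Other features of the livers moved with diet as well. Of 12 clock genes, 9 were called in HFD versus chow, 7 higher and 2 lower, and the first principal component of these genes, used as a clock score, ran from -6.31 to -2.22 in chow and from -4.58 to 7.57 in HFD mice. Over the 15 HFD mice its r with Csad was 0.120, and within fishmeal, salmon filet and beef, with 5 mice each, it was 0.739, -0.442 and -0.179, so that the sign differed between groups. With the score as a covariate, edgeR gave Csad a log2 fold change of -2.71 (adjusted p = 0.00393) in HFD versus chow, -3.99 (adjusted p = 0.0313) in fishmeal, -2.18 (adjusted p = 0.465) in salmon filet and -2.28 (adjusted p = 0.0759) in beef, each versus chow. Among the 9 other pathway genes called in HFD versus chow, Slc36a1 alone passed in that fit (adjusted p = 0.0271). Over all genes, the score cut the calls in HFD versus chow from 1669 to 281 of 17120. They fell from 556 to 33 in fishmeal, from 728 to 18 in salmon filet and from 499 to 18 in beef, each versus chow. As the score itself moved with diet, the parts of diet and clock in a lost call cannot be told apart.

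Of the cell type markers, none of the lists for hepatocytes, Kupffer cells, stellate cells, or pericentral and periportal hepatocytes held a called gene. All 3 B cell markers were lower in HFD, with a summed level of 3.0 to 7.98 CPM in chow and 0.977 to 3.13 CPM in HFD mice. Clec4g of 4 endothelial markers, Sox9 of 4 cholangiocyte markers and Cd3d of 3 T cell markers were lower, and Alas2 of 3 red blood cell markers was higher. Their summed levels overlapped between chow and HFD, at 128 to 146 and 107 to 155 CPM for endothelial cells, 9.34 to 15.8 and 4.51 to 12.9 CPM for cholangiocytes, 1.47 to 2.71 and 0.770 to 1.87 CPM for T cells, and 57.5 to 162 and 71.4 to 377 CPM for red blood cells. Markers of adipocytes and exocrine pancreas were at most 0.215 and 0.0527 CPM in sum. The part of these cells in the level of Csad was not tested, and that of the clock cannot be told apart from that of diet.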

How the data were processed

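Liver mRNA of 20 mice was sequenced strand-specifically. Per the submitters' processing notes the authors aligned reads with HISAT2 1.2.1 and deposited unnormalised counts per gene from featureCounts 1.4.6-p1; the strand setting of the counting is not given in the sources used here. The deposited TPM values were used for comparisons between genes and for limma. The notes print the build GRCh38; the identifiers are of mouse, and 55141 of 55487 were found in the GENCODE M21 annotation (GRCm38) used for positions.

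Counts were tested with edgeR 4.0 in R 4.3 (quasi-likelihood test, TMM, filterByExpr with a minimum count of 10), fitting only the groups compared, with Benjamini-Hochberg adjustment over all genes tested. The test was tried on simulated data first. Alternatives used DESeq2 1.42, limma 3.58 on log2(TPM + 1) and log2(TPM + 0.1) for genes with a mean TPM of at least 0.5, other scalings and filters, a clock covariate, each mouse left out, and mouse 31 grouped as labelled. CPM on the log2 scale had a prior count of 2. Promoters are from RefSeq (GRCm38.p6), found for 4 of the 8 members; motifs were chosen with the sequence in view. Similar transcripts were found with blastn 2.17. Named genes were the members, every other pathway gene called, and the 3 genes most like each member; a few others were named after their values were seen. Members and lists were chosen with earlier results of these data known.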

Additional observations from a re-analysis of the deposited data

Results flagged for a closer look

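Of 28 groups of 5 mice examined (7 members in 4 diets), 1 held a mouse far from the rest. In chow, Cth was 459 CPM in mouse 1, while the nearest other chow mouse had 311 CPM. The gap was 0.781 of the group's range, above the Dixon critical value of 0.71, which chance alone passes in about 1 of 20 groups. Without mouse 1 the log2 fold change of Cth in HFD versus chow was -0.29 (adjusted p = 0.593), and Cth was not called with or without it.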

How the results depend on the processing

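Csad was called in HFD versus chow under all 29 alternatives, at -2.83 to -2.45. The number of members called stayed at 1 in comparisons with chow and at 0 between HFD groups, except with the clock covariate, where it was 0 in salmon filet versus chow and 0 in beef versus chow, and with DESeq2, where it was 2 in beef versus chow (Csad and Cth). Over all genes, the clock covariate left 18 calls in salmon filet versus chow and 18 in beef versus chow. Directions of members that were not called turned in some fits. Cdo1 was -0.0292 with limma on log2(TPM + 1) and -0.0292 on log2(TPM + 0.1), and -0.0225 to 0.0908 with single mice left out. With the clock covariate Ado was 0.13 and Slc6a6 was 0.12, and with single mice left out they were -0.0843 to 0.0212 and -0.132 to 0.00965. Csad in salmon filet versus beef was 0.0592 with mouse 31 grouped as labelled, and in fishmeal versus salmon filet it was -0.43 to 0.52 with single mice left out. The causes were not tested. No paired analysis was possible because each mouse number occurs in 1 group only. With 5 mice per group the intervals of Csad between HFD groups were wide, and Got1l1 was too low to be tested.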
